A study of Mus musculus with 157 samples.

Results

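RNA polymerase II (Pol II) was compared over gene bodies between 24 h and 6 h of retinoic acid (RA) in mouse embryonic stem (ES) cells. All libraries of the comparison that have a column in the 2 gene-body tables were taken, 10 of the 157 samples in the series. With an antibody to the N-terminal domain (NTD) of the large subunit, which binds Pol II whatever its phosphorylation, there were 2 libraries at 24 h (replicates 2 and 3) and 3 at 6 h (replicates 1, 3 and 4). With an antibody to the C-terminal repeat phosphorylated at serine 2 (Ser2p) the numbers and the replicate labels were the same. Both groups were wildtype E14 cells, an established feeder-free mouse ES line, kept on gelatin in serum with leukemia inhibitory factor and given 1 µM RA. By their labels the groups differed in the hours of RA and in their replicate sets, which share only number 3. RA exposure, time in culture and replicate set therefore cannot be told apart between them. Untreated cells (0 h) and 2, 4, 48 and 72 h of RA made up the rest of the time course. The NTD table held 33968 RefSeq transcripts of 23870 gene symbols, of which 31843 transcripts of 21879 symbols passed the filter on low counts. The Ser2p table held 33985 transcripts of 23887 symbols, of which 32123 transcripts of 22154 symbols passed.

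Pol II is loaded at promoters, often stalls shortly downstream of the start site, and then moves through the body of the gene. Serine 5 of the C-terminal repeat is phosphorylated near the start, and serine 2 is phosphorylated by elongation kinases further along, so Ser2p marks polymerase that is elongating. RA binds nuclear receptors at response elements and switches on anterior Hox genes and the genes of its own breakdown, while it drives ES cells out of pluripotency. Nodal, a ligand of the transforming growth factor beta (TGF-beta) superfamily, signals through SMAD2 and SMAD3 and induces its own inhibitors Lefty1 and Lefty2. AP-1 factors such as Jun and Fosl2 are immediate early regulators that respond to growth factors and stress.

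The 5 NTD libraries held 16221068 to 23043258 counts over gene bodies and the 5 Ser2p libraries 21815537 to 28745658. Counts are given as CPM, scaled to library size by the trimmed mean of M-values (TMM), with ± as the standard deviation over libraries. Changes are log2 differences, 24 h minus 6 h, with ± as the standard error of the fit. A transcript was called where its adjusted p in edgeR's quasi-likelihood test, fitted to all transcripts of that antibody and all 7 times, was below 0.05. The deposited body windows run over the whole gene: the width implied by the deposited values matched the RefSeq gene length within 1% for 9457 of 9989 single-transcript genes in the NTD table, so body counts include the start site. ChIP-seq has no strand and averages over cells, so more Pol II per cell and more cells with Pol II cannot be told apart. The ES cell label was checked on NTD signal per length (deposited FPKM): Sox2 lay at 8.29 to 15.1 and Zfp42 at 4.92 to 5.59 over the 5 libraries, while the fibroblast genes Col1a1 and Dcn lay at 0.635 to 0.724 and 0.490 to 0.595.

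Few gene bodies passed the test in the fit of all 7 times. In the NTD libraries 7 transcripts were higher at 24 h (0.022% of those tested) and 3 were lower (0.00942%). They included Lefty1 and Jun on the higher side and belonged to Igsf21, Nphs1 and Adamts14 on the lower side. In the Ser2p libraries 36 transcripts of 24 symbols were higher (0.112%) and 2 transcripts of 2 symbols, Tex28 and E2f2, were lower (0.00623%). Lefty1 and Jun were among the 3 symbols that rose in both antibodies. The count of calls depended on the model. Fits of only the 24 h and 6 h libraries called 440 NTD and 2987 Ser2p transcripts, and DESeq2 called 70 and 218.

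Lefty1, the secreted Nodal antagonist, rose in both antibodies. Its body (chromosome 1, 180935022 to 180938401, mm10) held 31.8 and 41.1 CPM of NTD at 24 h against 5.49, 8.00 and 4.61 CPM at 6 h. The Ser2p values were 17.2 and 25.2 CPM against 4.43, 5.36 and 3.10 CPM. In each antibody the lower 24 h library lay well above the highest 6 h library. The log2 change was 2.60 ± 0.33 in NTD (adjusted p = 0.00551) and 2.32 ± 0.31 in Ser2p (adjusted p = 0.00415).

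Jun, the AP-1 subunit, is an intronless gene of 3187 bp (chromosome 4, 95049036 to 95052222). NTD over it was 26.2 and 37.7 CPM at 24 h against 9.33, 11.98 and 10.9 CPM at 6 h. Ser2p was 12.01 and 17.6 CPM against 3.30, 5.40 and 4.68 CPM. The 24 h libraries lay above all 6 h libraries in both antibodies, with log2 changes of 1.57 ± 0.25 (adjusted p = 0.0366) and 1.73 ± 0.27 (adjusted p = 0.0182). The call was lost in both antibodies without 24 h replicate 3 and without any 1 of the 6 h libraries, with changes of 1.28 to 1.66 in NTD and 1.42 to 1.88 in Ser2p. In NTD it was also lost under the authors' scale factors, the library multipliers of their deposited signal (adjusted p = 0.0513).

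**Figure D1:**
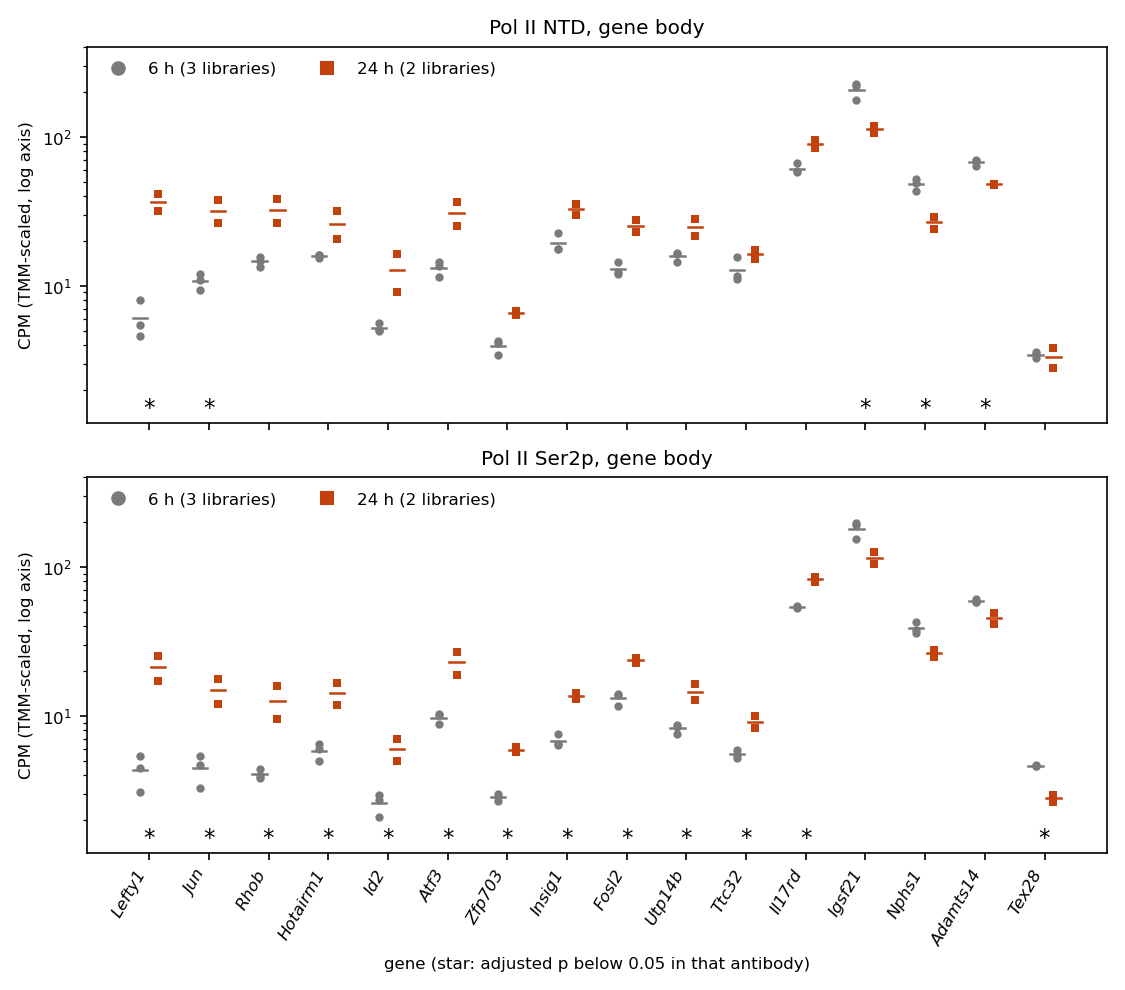
Pol II over the bodies of 16 genes in each library, in CPM on a log axis, with NTD above and Ser2p below; grey circles are the 3 libraries at 6 h, orange squares the 2 at 24 h, horizontal bars the group means and stars an adjusted p below 0.05. Lefty1 and Jun carry stars in both panels, and for Rhob to Il17rd only the Ser2p panel has stars although most of their NTD groups do not overlap either.

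The Ser2p libraries called 21 further symbols higher, with log2 changes from 0.42 to 1.69. Rhob, a growth factor and stress inducible small GTPase that regulates actin and endosomes, held 9.49 and 15.8 CPM of Ser2p at 24 h against 3.93, 3.83 and 4.41 CPM at 6 h (1.64 ± 0.24, adjusted p = 0.0137). Its NTD values, 26.3 and 38.1 CPM against 13.4, 14.7 and 15.6 CPM, did not overlap but missed the threshold (1.14 ± 0.22, adjusted p = 0.148). Both 24 h libraries exceeded all 6 h libraries in each antibody, with replicate 3 the higher.

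Atf3 and Fosl2 encode stress or AP-1 factors. Atf3, a bZIP repressor induced by stress, held 18.7 and 27.0 CPM of Ser2p at 24 h against 10.2, 8.83 and 10.2 CPM at 6 h (1.23 ± 0.20). Fosl2, which encodes the AP-1 partner FRA-2, held 22.7 and 24.5 CPM against 11.7, 14.1 and 13.8 CPM (0.84 ± 0.12). Neither gene's groups overlapped. Their NTD changes were alike in size, 1.23 ± 0.22 for Atf3 and 0.97 ± 0.19 for Fosl2, without passing the test (adjusted p = 0.105 and 0.159). Both Ser2p calls were lost without 6 h replicate 1 or 6 h replicate 4, and that of Atf3 also without 6 h replicate 3.

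Signalling genes among the Ser2p rises came from several pathways. Id2, a BMP-induced inhibitor of basic helix-loop-helix factors, held 4.99 and 7.01 CPM at 24 h against 2.71, 2.93 and 2.10 CPM at 6 h (1.24 ± 0.20). Il17rd, also called Sef and an inhibitor of FGF-ERK signalling, held 79.2 and 85.4 CPM against 53.8, 53.1 and 54.6 CPM (0.61 ± 0.09). Gli3, a transcription factor of the hedgehog pathway, changed by 0.48 ± 0.09, and Grb10, an imprinted adaptor that dampens insulin receptor signalling, by 0.60 ± 0.11. All 4 had both 24 h libraries above every 6 h library.

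Hotairm1 and Zfp703 belong to RA biology or patterning. Hotairm1, a noncoding RNA of the Hoxa cluster, held 11.8 and 16.6 CPM of Ser2p at 24 h against 5.97, 6.44 and 4.96 CPM at 6 h (1.31 ± 0.22). Its interval overlaps other RefSeq genes, whose reads cannot be told apart from its own where they overlap. Zfp703, a zinc finger corepressor, held 5.71 and 6.13 CPM against 2.67, 2.84 and 3.00 CPM (1.06 ± 0.14). Neither gene's Ser2p groups overlapped.

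Genes of lipid metabolism were Insig1, Lpin1 and Fads3. Insig1, the endoplasmic reticulum protein that holds back the sterol sensor complex, held 14.2 and 13.1 CPM of Ser2p at 24 h against 7.55, 6.48 and 6.37 CPM at 6 h (1.00 ± 0.16). Lpin1, a phosphatidate phosphatase and coactivator, changed by 0.63 ± 0.11, and Fads3, a fatty acid desaturase, by 0.69 ± 0.13. In all 3 the groups did not overlap.

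The remaining Ser2p rises had diverse roles. Utp14b, a ribosome biogenesis gene that lies inside Acsl3, changed by 0.82 ± 0.15. Utrn, the dystrophin relative utrophin, changed by 0.42 ± 0.07 and Tes, a focal adhesion protein, by 0.44 ± 0.08. Zfp91 (0.59 ± 0.10) and Gm44505 (0.57 ± 0.10) overlap and share a start window, so they count as 1 region. Epc1, a subunit of the NuA4 acetyltransferase, changed by 0.50 ± 0.08. Mir1893 (1.69 ± 0.31) is an 83 bp hairpin inside Epc1 with only 1.26 and 1.57 CPM at 24 h and 0.497, 0.585 and 0.275 CPM at 6 h. Ttc32, a tetratricopeptide repeat gene, changed by 0.73 ± 0.13. Of the 29 symbols called in either antibody, 18 overlap another RefSeq gene.

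The promoters of 4 of these genes are shown because they are short called genes, of 2294 to 7251 bp, whose starts were measured as well. Each line holds the 250 bases before the start, 5′ to 3′ on the gene's strand, from RefSeq (GRCm38.p6), with CCAAT in either orientation in capitals and, in Jun, also TGACATCA, the variant AP-1 element.
Jun, chr4:95052223-95052472, minus strand: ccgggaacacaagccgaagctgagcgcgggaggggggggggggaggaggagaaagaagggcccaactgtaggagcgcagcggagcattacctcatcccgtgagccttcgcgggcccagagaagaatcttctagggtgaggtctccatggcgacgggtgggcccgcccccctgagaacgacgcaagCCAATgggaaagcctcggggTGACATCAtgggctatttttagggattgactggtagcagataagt
Id2, chr12:25096093-25096342, minus strand: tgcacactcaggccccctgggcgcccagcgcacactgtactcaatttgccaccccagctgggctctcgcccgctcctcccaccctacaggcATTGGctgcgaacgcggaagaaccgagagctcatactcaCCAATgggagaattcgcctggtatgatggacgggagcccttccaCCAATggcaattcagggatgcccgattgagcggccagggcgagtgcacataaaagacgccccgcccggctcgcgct
Rhob, chr12:8500010-8500259, minus strand: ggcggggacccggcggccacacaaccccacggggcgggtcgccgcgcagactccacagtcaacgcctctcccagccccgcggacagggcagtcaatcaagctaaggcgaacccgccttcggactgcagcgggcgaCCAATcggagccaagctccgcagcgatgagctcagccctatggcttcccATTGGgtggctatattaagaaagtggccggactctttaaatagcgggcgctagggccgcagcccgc
Insig1, chr5:28071162-28071411, plus strand: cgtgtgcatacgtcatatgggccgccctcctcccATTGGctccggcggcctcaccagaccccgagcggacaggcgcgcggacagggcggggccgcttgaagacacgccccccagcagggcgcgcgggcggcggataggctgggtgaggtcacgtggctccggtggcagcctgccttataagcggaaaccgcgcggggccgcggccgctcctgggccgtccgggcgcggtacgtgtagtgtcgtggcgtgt

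Id2 holds 3 CCAAT boxes, Rhob 2, and Jun and Insig1 1 each. Over all called symbols, 21 of 29 matched a RefSeq promoter entry, giving 22 windows. CCAAT lay in 10 of these 22 windows and in 33.8% of 32817 promoter windows of 250 bases. TGACATCA lay in 1 of 22, that of Jun, and in 2.93% of all windows. The AP-1 element TGANTCA lay in none of the 22 and in 6.75% of all, and the cAMP response element TGACGTCA in none and in 1.55%. The RA half-site AGGTCA lay in 3 of 22 against 14.03%, the SMAD box CAGAC in 11 against 42.2% and the GC box GGGCGG in 14 against 32.7%. Both strands were searched, motifs may overlap, and a match describes letters in this window only.

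Start windows reach 1 kb to either side of the start and were measured with NTD and with an antibody to polymerase phosphorylated at serine 5 (Ser5p). At the start windows of these 4 genes the changes had the same sign as over the bodies, whose windows include the start and so overlap these. Id2 had 63.7 and 106 CPM of NTD at 24 h against 42.8, 34.6 and 41.3 CPM at 6 h (1.11 ± 0.21, adjusted p = 0.0173), and its Ser5p change was 1.40 ± 0.23 (adjusted p = 0.00125). Jun was called in NTD (1.01 ± 0.21, adjusted p = 0.0294) and missed the threshold in Ser5p (1.01 ± 0.25, adjusted p = 0.085). Rhob (0.77 ± 0.20 in NTD and 1.06 ± 0.23 in Ser5p) and Insig1 (0.41 ± 0.19 and 0.88 ± 0.21) were not called at their starts. The NTD start calls of Id2 and Jun were lost under the authors' scale factors, without 24 h replicate 3 and without any 1 of the 6 h libraries. The authors' deposited comparison called neither start in NTD and both in Ser5p.

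In NTD 3 gene bodies fell. Igsf21 encodes an immunoglobulin adhesion protein of synapses and is long (chromosome 4, 140026852 to 140246983). It held 119 and 106 CPM at 24 h against 225, 176 and 219 CPM at 6 h (-0.88 ± 0.14, adjusted p = 0.0366). Nphs1 (chromosome 7, 30458207 to 30488623), the gene of the podocyte protein nephrin, held 29.0 and 24.1 CPM against 52.0, 48.6 and 43.4 CPM (-0.85 ± 0.11, adjusted p = 0.00711). Adamts14, a procollagen processing protease, held 48.2 and 47.7 CPM against 70.2, 68.5 and 63.4 CPM (-0.49 ± 0.08, adjusted p = 0.0366). In all 3 genes every 24 h library lay below every 6 h library. Leaving out 24 h replicate 3 or either of 6 h replicates 1 and 4 ended all 3 calls; those of Igsf21 and Adamts14 were also lost without 24 h replicate 2, and that of Adamts14 also without 6 h replicate 3.

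Ser2p of the same 3 genes was lower without a call: -0.64 ± 0.14 for Igsf21, -0.56 ± 0.13 for Nphs1 and -0.38 ± 0.08 for Adamts14, each with groups that did not overlap. The authors' deposited table gave Igsf21 an adjusted p of 6.8e-06 in NTD and 0.00519 in Ser2p. Tex28 fell in Ser2p: 2.65 and 2.95 CPM at 24 h against 4.70, 4.59 and 4.61 CPM at 6 h (-0.72 ± 0.13, adjusted p = 0.0461). Its NTD values, 2.81 and 3.81 CPM against 3.60, 3.28 and 3.46 CPM, overlapped. E2f2, a cell cycle transcription factor, was called in Ser2p in its shorter transcript: 11.5 and 10.9 CPM against 16.6, 15.6 and 17.2 CPM (-0.56 ± 0.10, adjusted p = 0.0455). The calls of Tex28 and E2f2 were lost without any 1 of the 5 libraries and under the authors' scale factors. DESeq2 did not call Tex28, nor was it called without 0 h replicate 4 and 72 h replicate 3, and E2f2 was not called with 1 transcript per symbol.

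The antibodies were compared for the same genes. Their libraries at 6 h and 24 h carry the same replicate labels, so agreement between antibodies was not taken as independent replication. Of the 24 symbols that rose in Ser2p, 24 had a positive NTD change and 22 had NTD groups that did not overlap, all but Mir1893 and Ttc32. Over all symbols tested in NTD, both 24 h libraries lay above all 6 h libraries in 15.3% and below them in 13.9%. In Ser2p these shares were 21.3% and 21.8%. Such shares varied with the level of Pol II, as given below, and the level of the 24 was not compared. The median NTD change of the 24 was 0.66, against -0.01 over all symbols in each antibody.

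**Figure D2:**
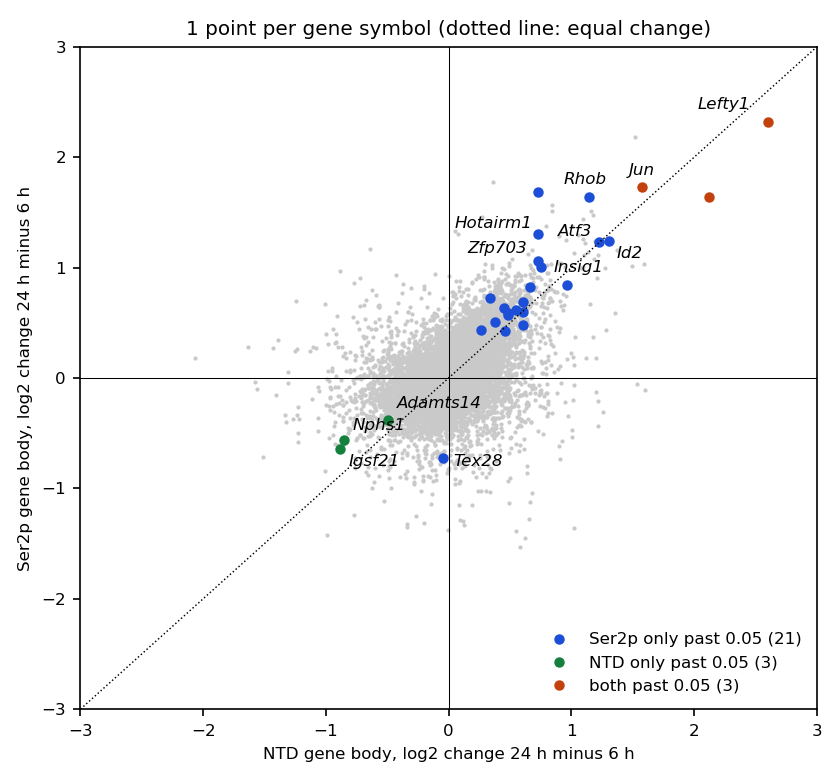
Change over gene bodies from 6 h to 24 h in NTD (horizontal) and Ser2p (vertical), log2 scale, with 1 point per gene symbol tested in both antibodies (21803). Orange points passed the test in both antibodies (3), blue points in Ser2p only (21) and green points in NTD only (3). Each symbol stands by its transcript with the most counts, by which 23 symbols were called higher and 1 lower in Ser2p. Calls in another transcript only, such as that of E2f2 in its shorter transcript in Ser2p, are not among them. Apart from Tex28, which lies near 0 in NTD, the coloured points lie in the upper right or lower left.

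The test of the difference itself, Ser2p change minus NTD change, called none of 32232 transcripts, and 382 had an unadjusted p below 0.05; DESeq2 called 0 too, with 200 below 0.05. For Lefty1 the difference was -0.27 ± 0.49 and for Jun 0.17 ± 0.39. The 95% intervals reached from -1.24 to 0.70 and from -0.60 to 0.94, so differences within them were not excluded. This fit held no term for the replicate labels that the antibodies share, so the intervals take their libraries as unpaired. Among the genes called only in Ser2p the difference was 0.51 ± 0.35 for Rhob, 0.59 ± 0.34 for Hotairm1 and 0.35 ± 0.23 for Zfp703. For Tex28 it was -0.66 ± 0.25 (unadjusted p = 0.0136, adjusted p = 1.00). A call in Ser2p without one in NTD is therefore not a measured difference between the antibodies.

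Body and start windows were compared within the NTD libraries as the log2 ratio of body to start, with a pseudocount of 0.5 CPM and limma. The windows overlap, because body windows include the start, so body and start changes are not of separate stretches, least of all in short genes. None of 30699 transcripts was called, and 1197 had an unadjusted p below 0.05. Jun stood at 0.51 ± 0.20, Lefty1 at 0.40 ± 0.27 and Id2 at 0.09 ± 0.22. Of the 24 symbols that rose in Ser2p, 24 were higher at the start in NTD, 17 without overlap between groups, and 4 were called there, among them Lefty1, Jun and Id2. The background at NTD starts was 0.0377% of transcripts called higher and 0.0314% lower, and 10.9% of symbols with both 24 h libraries above all 6 h libraries. In Ser5p at starts 23 of the 24 were higher, 15 without overlap between groups where 14.4% of all symbols lay above all 6 h libraries. Of the 24, 3 were called there, Lefty1 and Id2 among them, against 0.061% of all transcripts called higher and 0.00915% lower.

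The change varied with the level of Pol II across the whole table. Symbols were ranked by mean FPKM, the deposited value per length, and divided into deciles. In Ser2p the median change ran from -0.10 in the lowest decile to 0.30 in the highest, and the share with both 24 h libraries above all 6 h libraries from 6.05% to 55.5%. The share below all 6 h libraries was 41.5% in decile 3 and 1.26% in the highest. NTD showed a smaller slope, with medians from -0.06 to 0.12 and shares above of 6.03% to 21.6%, with a peak of 25.6% in decile 9.

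The highest decile took 7.69, 7.82 and 7.01% of Ser2p counts at 6 h and 9.001 and 9.42% at 24 h, without overlap. In NTD it took 8.90, 10.5 and 9.82% against 9.88 and 11.02%, which overlapped. The part of level in the list medians given below was not tested.

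**Figure D3:**
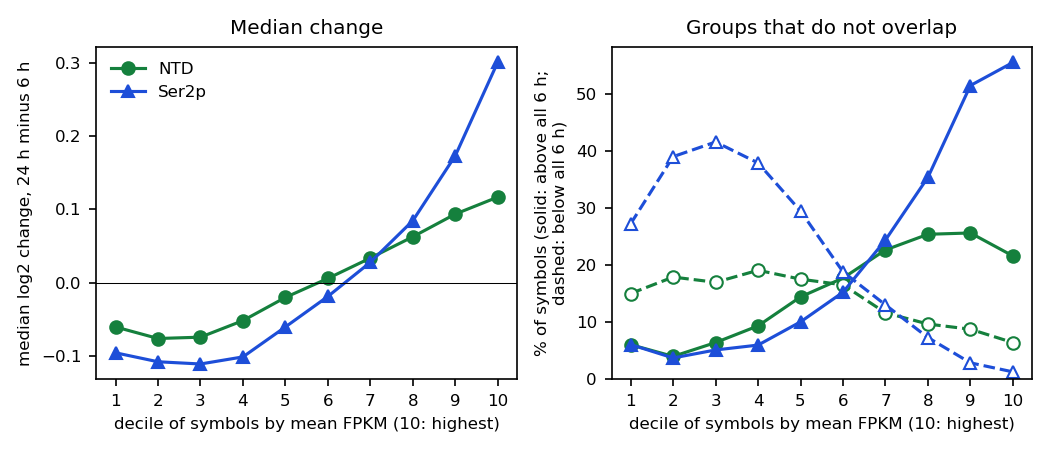
Left, the median log2 change from 6 h to 24 h, and right, the percentage of symbols whose groups do not overlap (solid line, both 24 h libraries above all 6 h libraries; dashed line, below), for deciles of symbols by mean FPKM with 10 the highest; green circles are NTD and blue triangles Ser2p. The Ser2p median climbs from -0.10 to 0.30 and the NTD median from -0.06 to 0.12.

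Gene groups were described by the symbols called, each symbol by its transcript with the most counts, against 0.0137% of symbols called higher and 0.0137% called lower in NTD, and 0.104% higher and 0.00451% lower in Ser2p. Of 15 genes of the Nodal and activin pathway, 2 were called higher in each antibody, Lefty1 among them, and none was called lower. In each antibody 9 of the 15 changes were positive and 6 negative. Inhbb had both 24 h libraries below all 6 h libraries in NTD. The ligand Nodal held 31.9 and 37.9 CPM of NTD at 24 h against 24.0, 25.4 and 22.6 CPM at 6 h (0.54 ± 0.23, adjusted p = 0.694). Lefty2, the second antagonist, held 6.81 and 6.80 CPM against 3.78, 4.26 and 4.78 CPM (0.66 ± 0.26, adjusted p = 0.647). Smad7, an inhibitory SMAD, held 116 and 126 CPM against 72.3, 71.4 and 89.3 CPM (0.64 ± 0.27, adjusted p = 0.69). None of these 3 groups overlapped, while the list's median change was only 0.14 in NTD and 0.15 in Ser2p.

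The anterior Hox genes, paralogues 1 to 5, had no call but the highest median of any list in both antibodies. Their median was 0.67 in NTD and 0.66 in Ser2p, with 10 of 15 genes above all 6 h libraries in each. Over all symbols 15.3% lay above in NTD and 21.3% in Ser2p. Hoxd3 and Hoxd4 lay below all 6 h libraries in Ser2p. In the 2 highest deciles sat 9 of the 15 genes by NTD level and 8 by Ser2p level. Of all symbols in deciles 9 and 10, 25.6% and 21.6% lay above in NTD, and 51.4% and 55.5% in Ser2p. Hoxa2 held 13.7 and 17.2 CPM of NTD at 24 h against 6.28, 7.20 and 6.92 CPM at 6 h (1.18 ± 0.27, adjusted p = 0.26). Hoxa3 held 79.1 and 86.0 CPM against 41.5, 40.2 and 47.5 CPM (0.94 ± 0.19, adjusted p = 0.167), and Hoxb1 7.46 and 12.7 CPM against 4.15, 3.63 and 2.43 CPM (1.59 ± 0.56, adjusted p = 0.594). These 3 had groups that did not overlap. At its start window Hoxa2 was called in NTD, with 46.1 and 54.5 CPM against 24.9, 19.9 and 21.9 CPM (1.18 ± 0.22, adjusted p = 0.0128). That call was lost under the authors' scale factors and without 24 h replicate 3 or 6 h replicate 4. The 19 posterior Hox genes had medians of 0.02 and -0.04, with 3 and 1 genes above all 6 h libraries and 2 and 3 below.

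Immediate early genes had 1 call of 18 in NTD, Jun, and 3 in Ser2p, Jun, Atf3 and Fosl2. The median change was 0.53 in each antibody, and 12 of 18 genes lay above all 6 h libraries in each. Egr1, a zinc finger factor of the serum response, held 78.5 and 46.4 CPM of NTD at 24 h against 25.9, 31.0 and 26.9 CPM at 6 h (1.16 ± 0.52, adjusted p = 0.741), with replicate 2 the higher here. Fos, the AP-1 partner of Jun, held 26.6 and 35.1 CPM against 14.1, 13.5 and 17.9 CPM (1.02 ± 0.26, adjusted p = 0.366). Neither overlapped. In this list 11 of 18 genes sat in the highest decile by NTD level, where the median of all symbols was 0.12 and 21.6% lay above all 6 h libraries. By Ser2p level 10 of 18 sat in the highest decile, where the median was 0.30 and 55.5% lay above all 6 h libraries.

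The targets of p53 and the cytoskeletal targets of SRF and YAP had no call in either antibody. For p53 the median was 0.51 in each, with 12 of 14 genes above all 6 h libraries in NTD and 11 in Ser2p. Of these genes 9 of 14 by NTD level and 10 of 14 by Ser2p level sat in the highest decile, with the same shares of 21.6% and 55.5% of all symbols there. Mdm2, the p53 ubiquitin ligase, held 91.5 and 130 CPM of NTD at 24 h against 52.8, 66.1 and 57.3 CPM at 6 h (0.92 ± 0.34, adjusted p = 0.602). Cdkn1a, the cyclin kinase inhibitor p21, held 24.2 and 41.2 CPM against 17.4, 21.8 and 18.6 CPM (0.76 ± 0.37, adjusted p = 0.798). Replicate 3 was the higher 24 h library in both. The SRF and YAP list had medians of 0.28 and 0.47 over 16 of its 18 genes, and its member Ctgf came nearest to a call, with 16.2 and 16.7 CPM of Ser2p against 6.29, 7.43 and 6.51 CPM (1.29 ± 0.25, adjusted p = 0.056).

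Sterol synthesis and uptake genes had 1 call of 18, Insig1 in Ser2p. All 18 had a positive NTD change, with a median of 0.29, and 15 lay above all 6 h libraries in Ser2p, with a median of 0.26. In the highest decile sat 2 of the 18 genes by NTD level and 1 by Ser2p level, and in the 2 highest deciles 6 and 8. Of all symbols, 55.5% in Ser2p decile 10, 51.4% in decile 9 and 35.3% in decile 8 lay above all 6 h libraries.

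Of 16 BMP and TGF-beta targets Id2 was called in Ser2p, and the medians were 0.32 in NTD and 0.24 in Ser2p. Id1 and Id3, its relatives, had Ser2p differences of 0.99 ± 0.28 and 1.03 ± 0.29 without a call (adjusted p = 0.17 and 0.167). Of 14 FGF-ERK feedback genes Il17rd was called in Ser2p, with medians of 0.17 and 0.28. Dusp6, an ERK phosphatase, held 10.9 and 12.99 CPM of Ser2p against 5.97, 7.43 and 5.71 CPM (0.91 ± 0.19, adjusted p = 0.0724).

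**Figure D4:**
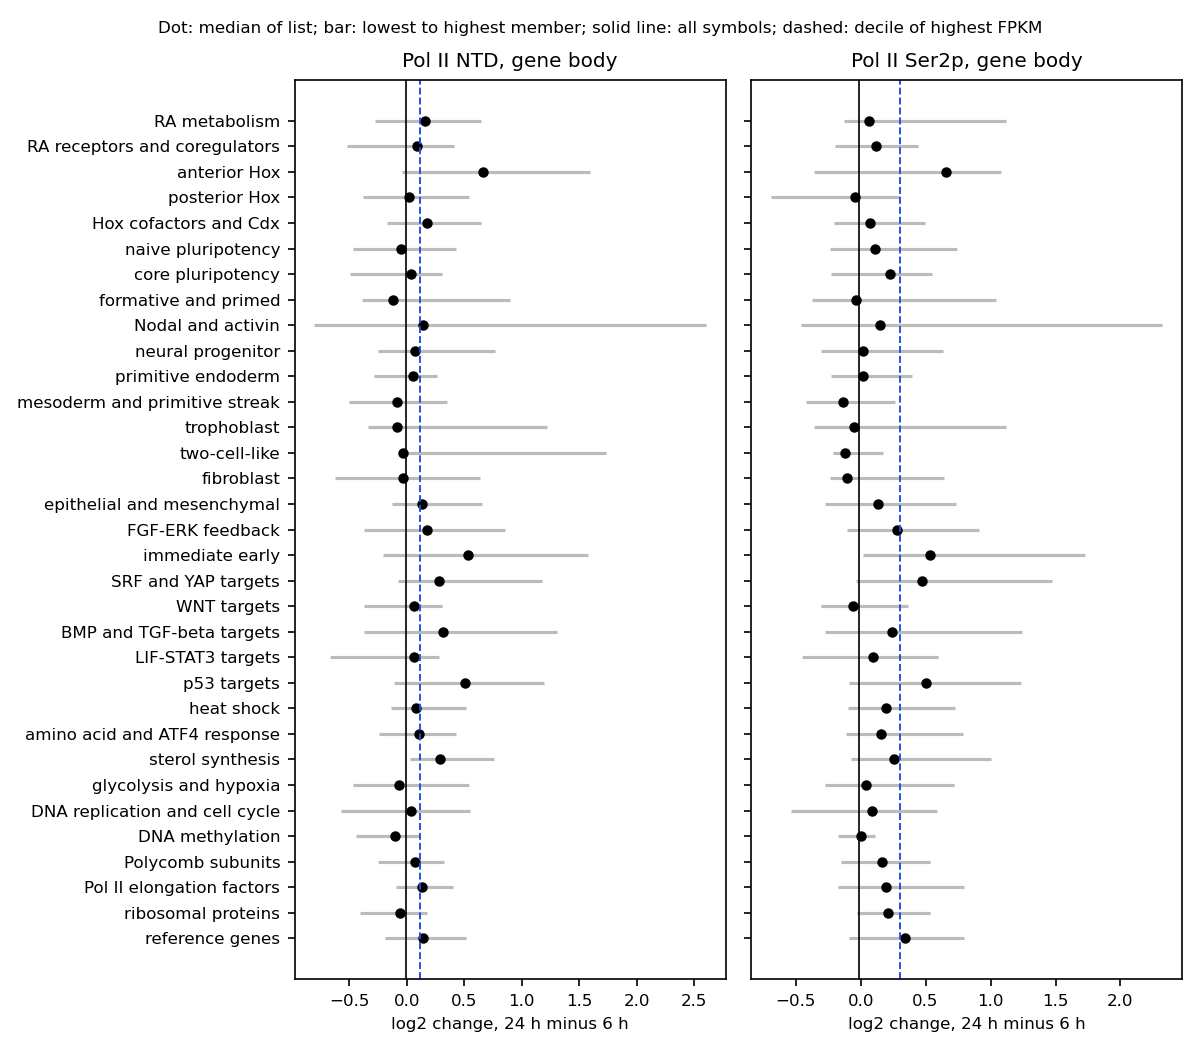
Log2 change from 6 h to 24 h of 33 gene lists, NTD on the left and Ser2p on the right; dots are list medians, bars run from the lowest to the highest member, the solid line is the median of all symbols and the dashed line that of the highest decile by FPKM. Anterior Hox, immediate early and p53 lists lie to the right of both lines in both panels, and the Nodal and activin list has a median near 0.15 with a bar that reaches 2.60 in NTD.

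No gene of the RA machinery itself was called. None of 14 RA metabolism genes and none of 15 RA receptor and coregulator genes was called, with medians between 0.06 and 0.16 over the antibodies. Of the 14, 6 lay above all 6 h libraries in each antibody, with 1 below in NTD and 2 in Ser2p. Of the 15, 7 lay above in NTD and 9 in Ser2p, with 2 below in each. Over all symbols 15.3% lay above in NTD and 21.3% in Ser2p. Cyp26a1, the enzyme that degrades RA, held 22.7 and 30.5 CPM of NTD against 18.1, 19.3 and 13.7 CPM (0.65 ± 0.40, adjusted p = 0.88), above its mean of 2.41 CPM in untreated cells at both times. Rarb, an RA receptor gene that RA induces, had an NTD difference of 0.24 ± 0.14 and Cdx1, a caudal homeobox gene, one of 0.22 ± 0.19. Cyp26a1 and Rarb lay above all 6 h libraries in both antibodies. The Hox cofactor genes Meis1 and Meis2 had differences of 0.31 ± 0.10 and 0.32 ± 0.12 in NTD, with groups that did not overlap and no call.

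Pluripotency genes had no call in either direction. The 20 naive genes had medians of -0.05 in NTD and 0.11 in Ser2p, and the 11 core genes 0.04 and 0.23. Pou5f1, which encodes OCT4, held 10.4 and 8.36 CPM of NTD at 24 h against 12.7, 12.5 and 14.3 CPM at 6 h (-0.49 ± 0.23, adjusted p = 0.784), and its Ser2p groups did not overlap either (-0.23 ± 0.18). Nanog (0.19 ± 0.30), Sox2 (-0.06 ± 0.29), Zfp42 (0.10 ± 0.28) and Esrrb (-0.18 ± 0.14) had NTD changes within 2 standard errors of 0 and overlapping groups. In Ser2p 6 of the 11 core genes, Nanog among them, and 7 of the 20 naive genes, Zfp42 among them, lay above all 6 h libraries. Below them lay 1 core and 2 naive genes, against 21.3% of all symbols above and 21.8% below. By Ser2p level 7 core and 9 naive genes sat in the highest decile, where 55.5% of all symbols lay above.

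Lineage markers had no call. Medians in NTD and Ser2p were 0.07 and 0.02 for 24 neural progenitor genes, 0.06 and 0.02 for 22 primitive endoderm genes and -0.09 and -0.13 for 21 genes of mesoderm and primitive streak. Gata6 (0.02 ± 0.21) and Sox17 (0.13 ± 0.16) of endoderm, Pax6 (0.04 ± 0.11) of neural progenitors, T (-0.06 ± 0.16) of the primitive streak, and Otx2 (-0.19 ± 0.29) and Fgf5 (-0.06 ± 0.15) of the formative state stood near 0 in NTD. In Ser2p T and Fgf5 lay below all 6 h libraries. Of the 21 mesoderm and streak genes, 6 lay below in NTD and 10 in Ser2p, with 0 and 1 above. Over all symbols 13.9% lay below in NTD and 21.8% in Ser2p. The median decile of these 21 genes by Ser2p level was 6, where 18.8% of all symbols lay below. The 12 fibroblast genes had medians of -0.04 and -0.10, and their summed level was 140 to 150 CPM at 6 h and 137 to 151 CPM at 24 h in NTD. Their Ser2p sum was 164 to 170 CPM at 6 h and 156 to 160 CPM at 24 h, without overlap.

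Genes of the general machinery had no call. The 32 ribosomal protein genes, all in the highest decile by level, had a median of -0.06 in NTD with 9 positive, and of 0.21 in Ser2p with 30 positive. The 22 Pol II elongation factor genes had medians of 0.13 and 0.19, and the 19 Polycomb subunit genes 0.07 and 0.16. Actb, used as a reference, held 97.9 and 101 CPM of NTD at 24 h against 62.3, 77.2 and 90.7 CPM at 6 h (0.37 ± 0.28), and its Ser2p difference was 0.79 ± 0.28 (adjusted p = 0.259). The median Ser2p change of 12 reference genes, 0.34, was near the 0.30 of the highest decile.

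The other times place the 6 h to 24 h change in the course; these comparisons share the 6 h or 24 h libraries, so values are given side by side. Of the 24 symbols that rose in Ser2p, none was called between 6 h and 0 h, where their median change was 0.01. In that contrast 0 of all 32123 Ser2p transcripts were called, so the absence of calls is not particular to these genes. All 24 were called higher at 24 h than at 0 h, with a median of 0.70. Over all 32123 transcripts 2896 were called higher there and 1285 lower. None of the 24 was called between 48 h and 24 h, where the median was -0.12. Of all transcripts 176 were called higher there and 436 lower. In 17 of 24 the 72 h mean lay below the 24 h mean. The 24 were selected as high in these same 24 h libraries, and the share over all symbols was not counted. This count therefore shows no course particular to them.

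Lefty1 had NTD means of 3.72 CPM at 0 h, 6.03 at 6 h, 36.4 at 24 h, 29.5 at 48 h and 6.38 at 72 h. Jun had 9.13, 10.7, 31.9, 49.6 and 62.9 CPM at the same times. The mean of Lefty1 was thus lower at 72 h than at 24 h while that of Jun was higher. Among the falls Nphs1 went from 48.0 CPM at 6 h to 26.6 at 24 h and 13.97 at 48 h in NTD and was called lower in both the 24 h to 0 h and the 48 h to 24 h comparison.

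**Figure D5:**
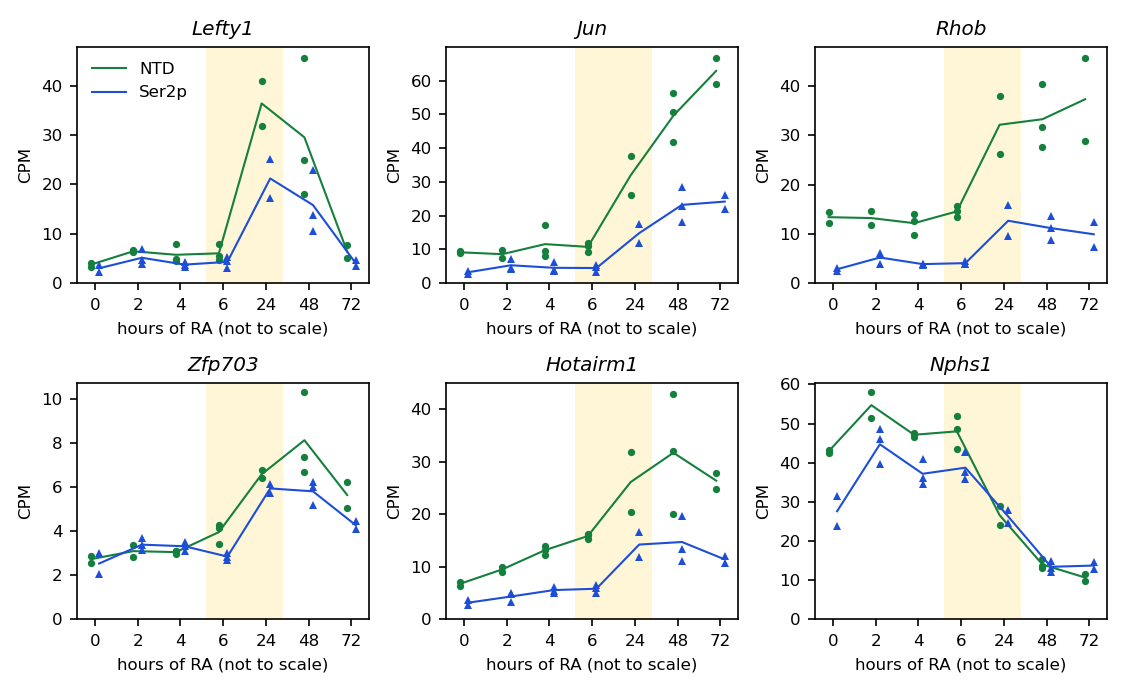
Pol II over the bodies of 6 called genes at 7 times of RA, in CPM, with NTD as green circles and Ser2p as blue triangles; points are libraries, lines join group means, times are not to scale and the shaded band marks the 6 h to 24 h comparison. Lefty1 rises within the band and has lower means at 72 h than at 24 h, the NTD mean of Jun is highest at 72 h, and Nphs1 falls across the band in NTD.

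The calls rest on 5 libraries per antibody and in part on single ones. Without 24 h replicate 3, which had the higher value for most rises, no body transcript was called in either antibody, with 609 NTD and 1560 Ser2p transcripts below an unadjusted p of 0.05. The change without that library was 2.41 in NTD for Lefty1, and the lone 24 h library was then assumed to vary like the other groups. Without 6 h replicate 1 or 6 h replicate 4 the NTD calls were lost as well, with 1302 and 1629 transcripts below 0.05. The 36 Ser2p transcripts called higher became 31 without 24 h replicate 2 and 8, 9 and 12 without 6 h replicates 1, 3 and 4. Of the 24 symbols that rose in Ser2p, 15 kept their call without 24 h replicate 2, 0 without 24 h replicate 3, and 3, 4 and 5 without 6 h replicates 1, 3 and 4. Lefty1 and Zfp703 kept it without any 1 of the 6 h libraries, Fosl2 without 6 h replicate 3 only, and Epc1 and Lpin1 without 6 h replicate 4 only. Among the symbols that lost it in each of those 3 cases were Jun, Rhob, Atf3, Id2, Il17rd, Hotairm1, Insig1, Gli3 and Grb10. Without 24 h replicate 2 the calls of Epc1, Gli3, Grb10, Insig1, Lpin1, Mir1893, Tes and Ttc32 were among those lost, and DESeq2 did not call Id2, Mir1893 or Zfp703. Ser2p kept its call of Lefty1 under every setting tried except the removal of 24 h replicate 3 (11 of 12 settings), with an adjusted p of 0.229 in the exception. For comparison, the authors' deposited table gave 20 NTD transcripts higher and 46 lower, and 38 Ser2p transcripts higher and 1 lower, at the same threshold. Its Ser2p calls included Lefty1, Jun, Rhob, Atf3, Fosl2, Il17rd, Hotairm1, Epc1, Gli3, Lpin1 and Utrn. Of these it also called Lefty1 and Jun in NTD. So were Atf3 (adjusted p = 0.000357), Rhob (0.0112) and Fosl2 (0.0493), which missed the NTD threshold in the fit made here. It called none of Il17rd, Hotairm1, Epc1, Gli3, Lpin1 and Utrn in NTD. It did not call Id2, Insig1, Zfp703, Grb10, Fads3, Tes, Ttc32, Utp14b or Zfp91 in Ser2p. Their adjusted p by the authors ran from 0.0679 for Zfp703 to 0.608 for Ttc32. Tex28 was not called there either. The authors' NTD changes of Lefty1 (1.10) and Jun (0.740) were smaller than those fitted here.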

How the data were processed

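Chromatin immunoprecipitation with sequencing was analysed from the deposited tables. The authors' tables give whole-number counts per RefSeq transcript, a signal that is the count times 1 factor per library, FPKM, log2 fold changes and adjusted p-values, per the file headers. Bowtie2, SAMtools, MACS2 and DESeq2, and the builds mm10 and dm6, are named without roles in the submitters' processing notes. Counts were tested with edgeR 4.0.16 (R 4.3.3): TMM scaling, filterByExpr, quasi-likelihood fit over 7 times per antibody without a replicate block, Benjamini-Hochberg adjustment. The difference between antibodies was an interaction term, and the body-to-start ratio used limma 3.58.1. DESeq2 1.42.0 and 11 other alternatives per gene are described at the end. The scripts were tested on simulated data. Named genes were the 12 largest called rises and falls per antibody at a mean of at least 3 CPM. These had to have every 24 h library beyond all 6 h libraries, which fixed their lack of overlap in the antibody of the call. Listed pathway genes and a fixed set, with Rarb, Pou5f1, Gata6 and Actb among them, were also named. Other called genes were named after their values were seen. Members and the 33 lists (520 symbols) were chosen with earlier results of these data known. The 14 columns of the authors' group means were not used. Some symbols in the tables had been turned into dates and match no list. Whether replicates are separate cultures is not given, so the spread behind the p-values may be technical only. An exact permutation test of 2 against 3 libraries cannot reach p below 0.05. Some genes counted among the calls and lists are not reported here by name.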

Additional observations from a re-analysis of the deposited data

How the results depend on the processing

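No called gene reversed its direction in the antibody of its call under the 12 alternatives, while the counts of calls moved with the model and with single libraries. Uncalled changes near 0 took the other sign under some settings: NTD stood at 0.20 for Sox2 without 6 h replicate 1, at -0.18 for Gata6 without 6 h replicate 3 and at 0.25 for Tex28 with the replicate block. Counts of transcripts higher and lower at 24 h were 7 and 3 in NTD bodies and 36 and 2 in Ser2p bodies, and the counts called at starts were 22 in NTD and 23 in Ser5p. With 1 transcript per symbol they were 3 higher in NTD bodies, 1 lower in Ser2p bodies and 10 at NTD starts. DESeq2 gave 49 and 21 in NTD bodies, 207 and 11 in Ser2p bodies and 40 at Ser5p starts. Fits of only the 24 h and 6 h libraries gave 356 and 84, 2383 and 604, 326 at NTD starts and 325 at Ser5p starts. Without 0 h replicate 4 and 72 h replicate 3 the counts were 28 and 7 in NTD bodies, 70 higher in Ser2p bodies, 137 at NTD starts and 98 at Ser5p starts. The authors' scale factors gave 0 lower in Ser2p bodies, 3 at NTD starts and 37 at Ser5p starts, and shifted the median change at starts from -0.04 to 0.13 in NTD and from -0.02 to 0.21 in Ser5p. No filter gave 45 at Ser5p starts. The cause of these shifts was not tested.

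Leaving out 1 library at a time gave 0 to 9 higher and 0 to 2 lower in NTD bodies, 0 to 31 higher and 0 to 1 lower in Ser2p bodies, 3 to 29 at NTD starts and 3 to 60 at Ser5p starts. The difference between antibodies gave 0 to 1 calls, the 1 without 6 h replicate 1, and the body-to-start ratio 0 to 2, the 2 without 24 h replicate 2. Replicate number 3 alone is shared by 6 h and 24 h, and deviations of the pair from their group means correlated at 0.21 in NTD and 0.18 in Ser2p bodies. Over all times same-numbered libraries correlated at a median of 0.29 and 0.10, with minima of -0.54 and -0.62, against -0.15 and -0.02 for different numbers, so the numbers were not taken to pair samples. With the replicate block the counts were 8 and 2 in NTD bodies, 11 and 0 in Ser2p bodies, 50 at NTD starts and 142 at Ser5p starts. Of the 24 symbols that rose in Ser2p, 5 were called with the block, Lefty1, Jun, Fosl2 and Zfp703 among them, and neither Tex28 nor E2f2 in Ser2p nor Adamts14 in NTD was called.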
